A study of Bos taurus with 179 samples.

Results

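Oocytes of 100-109 μm in diameter, the sixth of the 8 size groups in a series on bovine oocyte growth, were compared with the groups on either side, 90-99 and 110-119 μm. The group held 18 of the 179 oocytes deposited in the series. Of the deposited oocytes, 14 were not on the study's list of analysed oocytes and were left out, 2 of them in this size range. Members were the oocytes whose labels place them at 100-109 μm and whose identifiers appear on that list. Of the 18 oocytes, 11 belonged to library replicate 1 and 7 to replicate 2, and their diameters ran from 101.0 to 109.63 μm. The flanks held 21 oocytes of 90-99 μm (12 and 9 by replicate) and 19 oocytes of 110-119 μm (12 and 7). All were denuded oocytes from cattle ovaries obtained at slaughter, without an experimental treatment, each sequenced alone after capture of polyadenylated RNA. The study aspirated fully grown oocytes from surface follicles first. Growing oocytes were then released by slicing the cortex in a medium that contained cilostamide. No label gives the route of an oocyte, so its share in differences between sizes was not tested. Breed, age and animal of origin were not used here, since no label ties an oocyte to a cow. The p-values therefore measure the spread between oocytes or library sums, which may share an animal. The question was which transcripts stand transiently above or below their neighbours at this size.

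A bovine oocyte accumulates RNA and protein throughout its growth and stores them for meiotic maturation, fertilization and the first cleavages, when the embryo makes little RNA of its own. Late in growth the oocyte reaches the size at which it can resume meiosis, and transcription declines as the chromatin of the germinal vesicle condenses. Stored messages are controlled through the length of the poly(A) tail, so that a library made from polyadenylated RNA records tail length as well as transcript number. Levels are given as CPM, a gene's counts per 1e+06 counts of its library, with the library total adjusted by the TMM normalization factor of edgeR. An oocyte with more RNA in total would not show it on this scale.

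Depth differed between the 3 groups. The median total was 923622 counts per oocyte at 100-109 μm, with a range from 349196 to 7856854. At 90-99 μm the median total was 1150073, and at 110-119 μm it was 1986086. In replicate 1 the gap was wider, with medians of 627581 at 100-109 μm against 2775303 at 110-119 μm. A single oocyte of 109.57 μm carried 7856854 counts, or 52.9% of all counts of its size group in replicate 1. The main counts of calls and several named genes are therefore also given without it. Read length (150 bp for replicate 1, 75 bp for replicate 2) and library batch cannot be told apart.

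The cells carried the oocyte markers that could be named. The summed level of 8 oocyte genes was 5565.3 to 9098.6 CPM at 100-109 μm, 5847.5 to 10383.4 CPM at 90-99 μm and 6314.5 to 16566.1 CPM at 110-119 μm. The 5 paired markers of granulosa or theca cells summed to at most 16.1 CPM at 100-109 μm, 7.08 CPM at 90-99 μm and 3.17 CPM at 110-119 μm. The 4 stromal markers summed to at most 13.5 CPM at 100-109 μm, 15.5 CPM at 90-99 μm and 20.6 CPM at 110-119 μm, with COL3A1 at 0 throughout. The 3 endothelial markers were at 0 in 16 of 18 oocytes of 100-109 μm and in every flanking oocyte. The 5 blood and immune markers summed to a median of 134 CPM, against 90.5 CPM at 90-99 μm and 37.2 CPM at 110-119 μm. Nearly all of this sum was CSF1R, a growth factor receptor (medians of 122, 87.2 and 34.6 CPM), while CD14 was at 0 in all 3 groups and CD68 and CD163 had medians of 0.

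At equal depth, oocytes of 100-109 μm held counts for more genes than either flank. After each oocyte was thinned to 250000 counts, 8967 to 10437 genes were detected in the 18 oocytes, with a mean of 9809.1 ± 105 (SE, n = 18). The 21 oocytes of 90-99 μm averaged 9469.7 ± 117 genes and the 19 oocytes of 110-119 μm averaged 9306.1 ± 113. The ranges of the 3 groups overlapped. With replicate means removed, the group exceeded the mean of the flanks by 418 genes (two-sided permutation test within replicate, 100000 permutations, p = 0.00285). Taken flank by flank, the excess was 322 genes over 90-99 μm (adjusted p = 0.035 over 2 comparisons) and 508 genes over 110-119 μm (adjusted p = 0.00522), both by the same permutation test. In replicate 1 the mean was 9885.0 genes, against 9725.6 at 90-99 μm and 9411.1 at 110-119 μm. In replicate 2 it was 9689.7 genes, against 9128.4 and 9126.1. The distance to 90-99 μm thus lay mainly in replicate 2, and it was not tested by replicate. Without the deepest oocyte the excess over the flank mean was 389 genes (permutation p = 0.00566). It was 317 genes in replicate 1 alone (permutation p = 0.0574) and 562 genes in replicate 2 alone (permutation p = 0.0229).

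**Figure D1:**
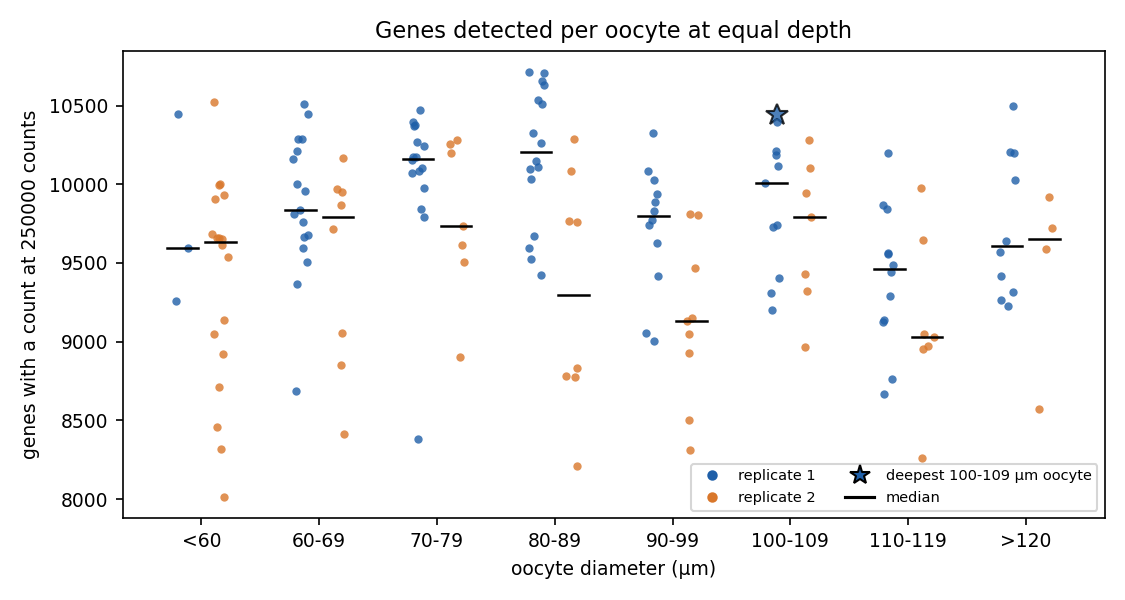
Genes with at least 1 count in each analysed oocyte after thinning to 250000 counts (vertical axis), by size group in μm (horizontal axis). Points are oocytes, coloured by replicate, bars are medians and the star is the deepest oocyte of 100-109 μm, whose 10437 genes are the highest value of its group; the medians of the 3 compared groups are 9627 genes at 90-99 μm, 9865.5 at 100-109 μm and 9289 at 110-119 μm.

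Across the other sizes the number of genes detected did not single out 100-109 μm. Median values were 10152 genes at 70-79 μm and 10090 genes at 80-89 μm, both above the 9865.5 of the group. The other groups had medians below it, of 9617 genes under 60 μm, 9838 genes at 60-69 μm and 9614 genes above 120 μm. These differences were not tested.

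By whole profile, oocytes of 100-109 μm lay nearer to 90-99 than to 110-119 μm in replicate 1 and not in replicate 2. Each oocyte's log2 counts at 250000 counts were correlated, across the 10993 genes tested on single oocytes, with the mean profile of each flank from the same replicate. Genes are not independent replicates, and a mean over more oocytes is smoother, so these values are descriptive. In replicate 1, all 11 oocytes correlated better with 90-99 μm, with median r of 0.942 against 0.889. In replicate 2, 2 of 7 oocytes were nearer to 90-99 μm and 5 nearer to 110-119 μm, with median r of 0.914 and 0.904. The median of the differences within oocytes was -0.00826, on the side of 110-119 μm. The spread of the replicate 2 values was narrow, from -0.0144 to 0.0145 in r difference, against 0.0379 to 0.0985 in replicate 1. The flanks themselves were farther apart in replicate 1. There, 11 of 12 oocytes of 110-119 μm and 12 of 12 of 90-99 μm fell on their own side, at median differences of -0.0502 and 0.0514. In replicate 2, 5 of 7 and 7 of 9 did, at median differences of -0.00291 and 0.00673.

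**Figure D2:**
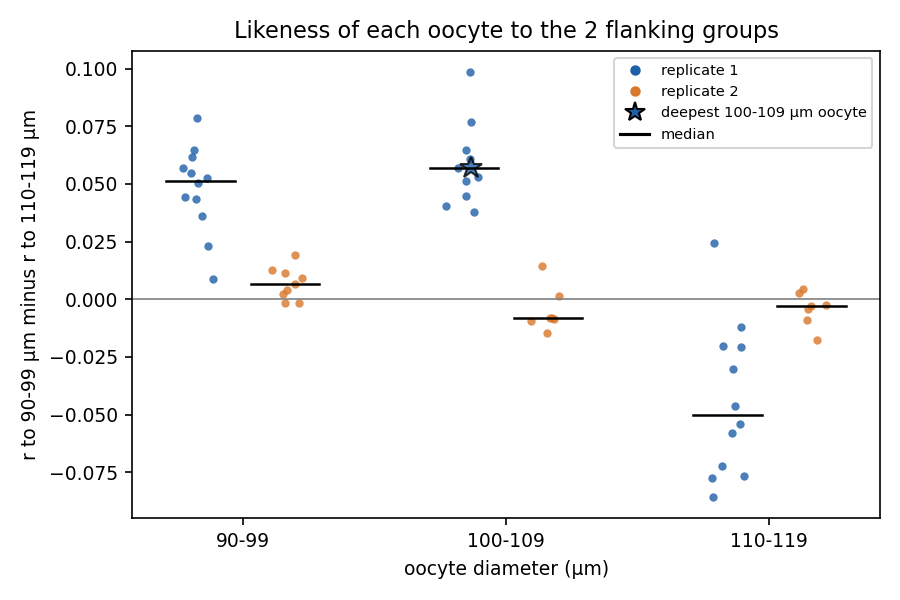
Difference between each oocyte's correlation with the mean 90-99 μm profile and with the mean 110-119 μm profile of its own replicate (vertical axis, no unit), by size group. Points are oocytes, bars are medians and the star is the deepest oocyte; in replicate 1 all 11 oocytes of 100-109 μm lie above 0 beside those of 90-99 μm, and in replicate 2 the 3 groups lie close to 0.

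No single gene passed the test when counts were summed. The 16 sums of 8 sizes by 2 replicates were fitted in edgeR with replicate as a blocking term. By the quasi-likelihood test, 0 of 14087 genes differed from the flank mean at an adjusted p of 0.05 in either direction (0% called). The lowest adjusted p was 0.0669, and 384 genes lay under 0.1, of which 312 were higher and 72 lower. At an unadjusted p under 0.05, 1756 genes were higher (12.5% of those tested) and 1222 lower (8.67%). DESeq2 on the same sums called 521 genes higher (3.7%) and 2.1% of genes lower. The same contrast placed on the other inner size groups gave 1.82% to 4.06% of genes at an unadjusted p under 0.05 for the groups from 60-69 to 90-99 μm. It gave 23.1% for 110-119 μm. The 100-109 μm oocytes are a flank both there and for 90-99 μm, which gave 3.6%. At an adjusted p of 0.05 none of these groups had a called gene by edgeR.

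With single oocytes as units, many genes differed from the flank mean. Of 10993 genes tested by edgeR, 1380 were higher at 100-109 μm (12.6%) and 1296 lower (11.8%). Treating oocytes as independent counts oocytes of the same cow separately, so these p-values are likely to be smaller than a test over animals would give. Without the deepest oocyte, 756 genes were higher (6.88%) and 1262 lower (11.5%). All 756 were among the 1380, and 1196 of the lower genes were shared. In replicate 1 alone 1459 genes were higher (12.5%) and 1246 lower (10.7%). In replicate 2 alone 0 genes passed by edgeR in either direction, with 538 higher and 352 lower at an unadjusted p under 0.05 (4.76% and 3.11%). Of the genes called on all single oocytes and tested in replicate 2 alone, 1353 of 1361 higher genes and 1239 of 1295 lower genes had the same sign there; replicate 2 was part of both. A test of the difference between replicates called 0 of 10993 genes by edgeR (lowest adjusted p = 0.21), and 6.84% had an unadjusted p under 0.05.

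Most of the difference from the flank mean was a difference from the larger oocytes. Against 110-119 μm, 1972 genes were higher (17.9%) and 2090 lower (19.0%) on single oocytes. Omitting the deepest oocyte gave 1431 higher (13%) and 2290 lower (20.8%). Against 90-99 μm, 61 genes were higher (0.555%) and 20 lower (0.182%). On the sums the same pair of contrasts called 1.99% higher and 1.89% lower against 110-119 μm and 0 against 90-99 μm by edgeR. DESeq2 called 60 genes higher (0.426%) and 14 lower (0.0994%) against 90-99 μm, and 913 higher (6.48%) and 1054 lower (7.48%) against 110-119 μm. Within replicate 1 alone, 5 genes were higher than at 90-99 μm (0.0429%), while 2525 were higher (21.7%) and 2491 lower (21.4%) than at 110-119 μm. Within replicate 2 alone, 1 gene was higher than at 110-119 μm (0.00885%) and none passed against 90-99 μm by edgeR. Both contrasts share the 100-109 μm oocytes. Of the 1380 higher genes, 1204 (87.2%) passed against 110-119 μm and not against 90-99 μm, 28 passed against both, 23 against 90-99 μm alone and 125 against neither. Of the 1296 lower genes, 1237 (95.4%) passed against 110-119 μm alone, 11 against both, 7 against 90-99 μm alone and 41 against neither. The median log2 fold change of the higher genes was 0.56 against 90-99 μm and 1.07 against 110-119 μm. For the lower genes it was -0.38 and -1.0. When the weaker of the 2 flank tests had to pass after adjustment over all genes, 0 genes were called on the sums (513 genes above both flanks at an unadjusted p under 0.05) and 0 on single oocytes, where the lowest adjusted p was 0.0521. A single identifier without a symbol, ENSBTAG00000006125, passed this rule by DESeq2.

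**Figure D3:**
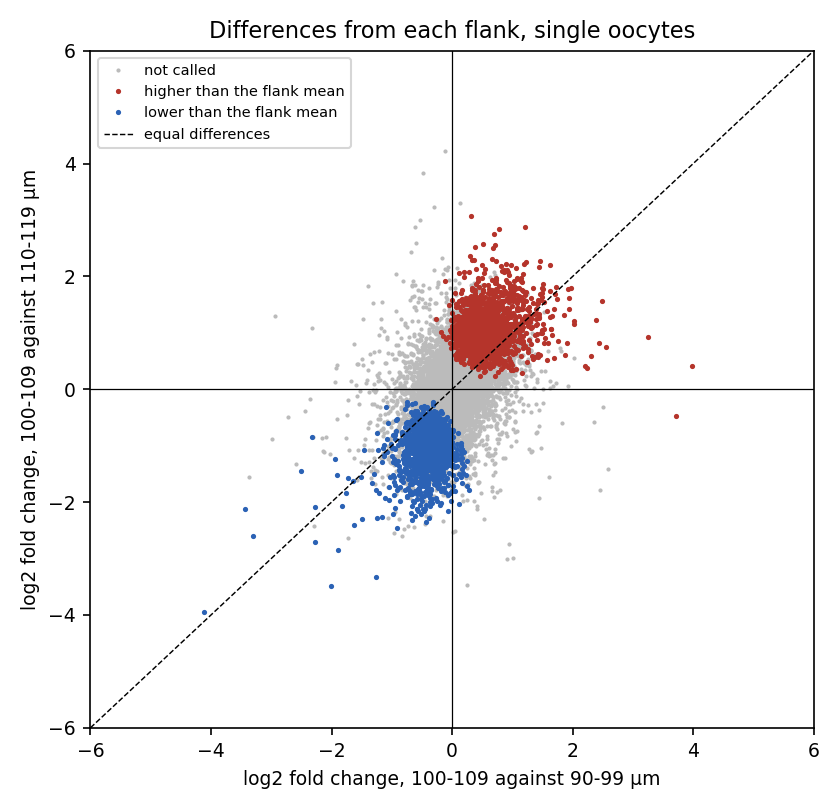
Log2 fold change of each of 10993 genes at 100-109 μm against 90-99 μm (horizontal axis) and against 110-119 μm (vertical axis), single oocytes as units. Points in red and blue are the 1380 higher and 1296 lower genes against the flank mean; they lie mainly on the side of the dashed line of equal differences where the distance to 110-119 μm is the greater.

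The 8 named genes closest to a transient peak included a pair of lysosomal proteases, a subunit of the vacuolar proton pump and a pair of secreted proteins. Only 3569 of the 21218 gene identifiers (16.8%) could be paired with a symbol, mostly symbols early in the alphabet, and these 8 had the smallest unadjusted p among those whose sum exceeded both flanks in both replicates. That condition held for 19.1% of all genes tested. None was called on the sums (adjusted p = 0.0817 for all 8), and the values that chose them are given as a description.

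CTSD, an aspartic protease of the lysosome, ran from 7.85 to 178 CPM over the 18 oocytes with a median of 44.9 CPM. The median was 21.3 CPM at 90-99 μm and 17.1 CPM at 110-119 μm. Most oocytes of the group, 15 of 18, lay above the median of the flanking oocytes and 3 above all of them, while the ranges overlapped. In the sums, CTSD stood at 105 CPM against 40.9 and 18.3 CPM in replicate 1 and at 26.8 CPM against 14.4 and 16.3 CPM in replicate 2, naming 90-99 μm first. The log2 fold change against the flank mean was 1.44 ± 0.32 (SE) on the sums and 1.36 ± 0.30 on single oocytes (adjusted p = 0.000644). On single oocytes the difference from 110-119 μm passed (adjusted p = 0.000102) and that from 90-99 μm did not (adjusted p = 0.115). Without the deepest oocyte CTSD was still higher than the flank mean (1.19, adjusted p = 0.00345).

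CTSB, a cysteine protease of the lysosome, had a median of 419 CPM at 100-109 μm, 229.5 CPM at 90-99 μm and 255 CPM at 110-119 μm. Its range at 100-109 μm was 108 to 2919.8 CPM, and the highest value was that of the deepest oocyte. Without this oocyte the median was 400 CPM, and the log2 fold change on the sums moved from 1.5 to 0.52. On single oocytes the gene passed against each flank, by 0.92 against 90-99 μm (adjusted p = 0.0312) and 0.84 against 110-119 μm (adjusted p = 0.0021). Without the deepest oocyte it passed against neither (0.59, adjusted p = 0.255, and 0.46, adjusted p = 0.0874). Of 11 cathepsins listed, 8 were tested on single oocytes. CTSB, CTSD and CTSZ were higher than the flank mean and none was lower, beside 12.6% higher over all genes. CTSB and CTSD had been named for their values in this same contrast, so the count is a description and not separate evidence. With the deepest oocyte left out, 2 of the 3 remained called, beside 6.88% over all genes. The median log2 fold change of the 8 was 0.56, against 0.02 over all genes. On the sums, where 10 cathepsins were tested, the median was 0.61, and 0.28 without the deepest oocyte.

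ARRDC2 encodes an arrestin-domain protein. Its level ran from 6.98 to 550 CPM at 100-109 μm with a median of 89.8 CPM, against medians of 43.1 and 36.2 CPM at 90-99 and 110-119 μm. The highest value was again the deepest oocyte, and 15 of 18 oocytes exceeded the flank median. The log2 fold change was 1.82 ± 0.35 on the sums and 0.93 without the deepest oocyte. On single oocytes ARRDC2 passed against 90-99 μm (adjusted p = 0.0359) and against 110-119 μm (adjusted p = 0.00367). With the deepest oocyte left out, ARRDC2 was still higher than the flank mean (0.90, adjusted p = 0.0175), with 0.98 against 90-99 μm (adjusted p = 0.221) and 0.81 against 110-119 μm (adjusted p = 0.0492).

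CAND2, a regulator of cullin ubiquitin ligases, changed least among these genes when the deepest oocyte was left out, from 1.62 ± 0.31 to 1.35 on the sums. Its median was 24.3 CPM, against 11.8 CPM at 90-99 μm and 6.27 CPM at 110-119 μm, and 3 of 18 oocytes exceeded every flanking oocyte. On single oocytes it was higher than the flank mean by 1.41 ± 0.29 (adjusted p = 0.000454). It passed against 110-119 μm (1.91, adjusted p = 1.43e-05) and not against 90-99 μm (0.91, adjusted p = 0.157). In replicate 2 alone the log2 fold change was 1.45, which did not pass after adjustment.

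The other 4 peaks with a symbol were CLU, ATP6AP1, ADAMTS4 and CCDC137. CLU encodes the secreted chaperone clusterin, ATP6AP1 an accessory subunit of the vacuolar proton pump, and ADAMTS4 a secreted metalloprotease. CLU had a median of 44.9 CPM against 26.5 and 22.9 CPM at 90-99 and 110-119 μm, and its log2 fold change was 1.57 ± 0.29 on the sums, 1.11 without the deepest oocyte and 0.92 after thinning to 250000 counts. ATP6AP1 had a median of 33.7 CPM against 27.9 and 16.8 CPM, so the distance lay mainly to the larger oocytes. ADAMTS4 had a median of 27.8 CPM against 15.3 and 9.86 CPM, and 17 of 18 oocytes lay above the flank median. CCDC137 had a median of 39.0 CPM against 23.5 and 15.3 CPM, and its log2 fold change on the sums was 1.61, 0.89 without the deepest oocyte and 0.94 after thinning. All 4 were higher than the flank mean on single oocytes (adjusted p from 0.000898 to 0.0162). Each passed against 110-119 μm (adjusted p from 4.52e-05 to 0.0311) and none against 90-99 μm (adjusted p from 0.114 to 0.37). With the deepest oocyte left out, CLU and CCDC137 were no longer called (from 1.09 to 0.89, adjusted p = 0.0681, and from 1.0 to 0.73, adjusted p = 0.0552), while ATP6AP1 and ADAMTS4 were (0.72, adjusted p = 0.0249, and 1.08, adjusted p = 0.0053). With every oocyte thinned to 250000 counts, ATP6AP1 was not called (0.63, adjusted p = 0.0563), and its log2 fold change on the sums was 0.52.

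Of the identifiers without a symbol, ENSBTAG00000006125 and ENSBTAG00000009513 met the same rule. ENSBTAG00000006125 had a median of 114.4 CPM against 57.0 and 35.1 CPM, a log2 fold change of 2.27 ± 0.36 on the sums and the lowest adjusted p of all genes, 0.0669. Its highest oocyte, at 876 CPM, was the deepest one, without which the log2 fold change was 1.3. ENSBTAG00000009513 stood at 1.37 ± 0.25 with that oocyte and 1.41 without. Its median of 41.4 CPM compared with 27.4 CPM at 90-99 μm and 10.4 CPM at 110-119 μm.

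The 8 named genes nearest to a transient dip changed little without the deepest oocyte. They had the smallest unadjusted p among those whose sum lay below both flanks in both replicates, which 16.8% of all genes did, and again none was called on the sums (adjusted p from 0.0817 to 0.0883). Leaving out the deepest oocyte moved their log2 fold changes on the sums by at most 0.20. On single oocytes all 8 were lower than the flank mean (adjusted p from 0.000231 to 0.0114), all 8 passed against 110-119 μm and none against 90-99 μm.

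AASDHPPT, the transferase that attaches the phosphopantetheine arm to acyl carrier protein, had a median of 54.1 CPM at 100-109 μm within a range of 23.8 to 132.4 CPM. The medians were 67.2 CPM at 90-99 μm and 114.1 CPM at 110-119 μm. Of the 18 oocytes, 16 lay below the flank median. The sums were 34.9 CPM against 75.9 and 149 CPM in replicate 1 and 69.8 CPM against 125 and 117 CPM in replicate 2, and the log2 fold change was -1.22 ± 0.29. By oocyte medians, replicate 1 stood at 47.1 CPM, close to the 45.8 CPM of 90-99 μm and under the 155 CPM of 110-119 μm. The deepest oocyte, at 29.1 CPM, is 52.9% of that sum by total counts.

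CRIPT, a small microtubule-associated protein, had a median of 135 CPM against 177 CPM at 90-99 μm and 445.6 CPM at 110-119 μm. Its lowest value at 110-119 μm, 174 CPM, was above the median of the 100-109 μm oocytes. CFAP43 and CFAP210, genes of cilia and flagella, had medians of 15.3 and 21.0 CPM at 100-109 μm. Their medians were 16.5 and 27.9 CPM at 90-99 μm and 31.3 and 79.3 CPM at 110-119 μm. In replicate 1 the median of CFAP43 was 8.77 CPM at 100-109 μm, above the 7.03 CPM of 90-99 μm. For each of the 2, 17 of 18 oocytes lay below the flank median.

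Calmodulin, the calcium sensor of the cell, had its largest distance on one side. The gene named CALM had a median of 59.8 CPM at 100-109 μm, 63.0 CPM at 90-99 μm and 288 CPM at 110-119 μm. The replicates differed widely in its level. The medians for 90-99, 100-109 and 110-119 μm were 122, 90.8 and 795 CPM in replicate 1 and 23.8, 8.33 and 18.3 CPM in replicate 2. CALM2, another calmodulin gene, had a median of 1493.2 CPM against 2123.7 and 4371.7 CPM and was lower than the flank mean on single oocytes (log2 fold change -1.29, adjusted p = 0.000169). Calmodulin genes are close copies of one another, so the division of reads between them is uncertain.

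The remaining dips were ADAM22, a membrane protein of a metalloprotease family that lacks protease activity, NAALAD2, a membrane dipeptidase, and C17H4orf33. ADAM22 was without a count in 11 of 18 oocytes, against 7 of 21 at 90-99 μm and 1 of 19 at 110-119 μm. NAALAD2 was also without a count in 11 oocytes, against 9 and 4 in the flanks. Both lay at a few CPM, and absence of a count at this depth is not absence of the transcript. C17H4orf33 had a median of 54.1 CPM, close to the 54.7 CPM of 90-99 μm and under the 158 CPM of 110-119 μm. The identifiers ENSBTAG00000002123 and ENSBTAG00000017651 met the same rule without a symbol. The first was without a count in 13 of 18 oocytes, against 9 of 21 at 90-99 μm and 12 of 19 at 110-119 μm. Unlike the 8 named dips, it passed against both flanks on single oocytes (-3.44 against 90-99 μm, adjusted p = 0.0312, and -2.13 against 110-119 μm, adjusted p = 0.0433). Neither call held without the deepest oocyte (-3.28, adjusted p = 0.0906, and -2.12, adjusted p = 0.0526), and on the sums its log2 fold change moved from -3.57 to -2.99. The second had a median of 40.4 CPM against 48.6 and 59.3 CPM.

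**Figure D4:**
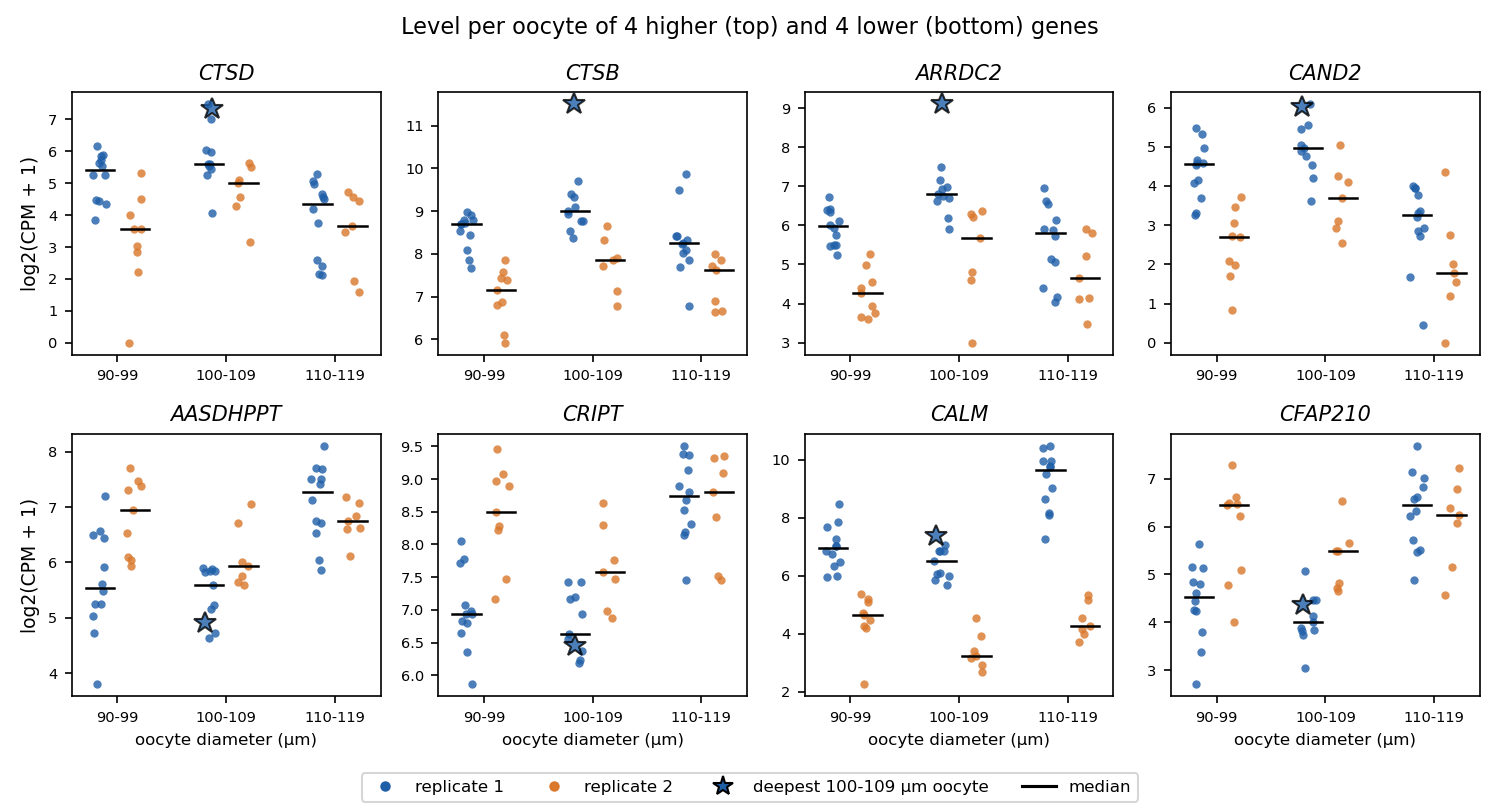
Level of 8 of the named genes in each oocyte, as log2(CPM + 1) (vertical axes), by size group in μm and replicate. Points are oocytes, bars are medians and the star is the deepest oocyte of 100-109 μm; in CTSB and ARRDC2 it lies above all others, and in CALM the oocytes of 110-119 μm stand high in replicate 1 and not in replicate 2.

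Across all 8 size groups the median levels of these genes put 100-109 μm in different places. CTSD was 40.4 CPM at 80-89 μm, 21.3 at 90-99 μm, 44.9 at 100-109 μm, 17.1 at 110-119 μm and 31.3 above 120 μm. CAND2 was 16.8 CPM at 80-89 μm and 9.87 CPM above 120 μm, and 24.3 CPM at 100-109 μm was its highest median. CLU at 100-109 μm, 44.9 CPM, was matched by 45.2 CPM above 120 μm. CRIPT was 127.5 CPM at 80-89 μm and 133 CPM at 70-79 μm, beside 135 CPM at 100-109 μm. Its highest median was the 445.6 CPM of 110-119 μm, followed by 255 CPM above 120 μm and 215 CPM under 60 μm. The medians of CFAP210 at 70-79, 80-89 and 100-109 μm were 20.0, 21.0 and 21.0 CPM.

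A small set of genes did separate from the smaller oocytes. On single oocytes 81 genes passed against 90-99 μm, and those named here were named after their values were seen. ACCSL, CTSB and ARRDC2 passed as higher against each flank. ACCSL had a median of 5270.2 CPM against 3727.9 and 2507.3 CPM, and its highest value, 26279.7 CPM, was the deepest oocyte. Its difference from 90-99 μm was 0.79 (adjusted p = 0.0312), and 0.53 without that oocyte (adjusted p = 0.257). Against 110-119 μm it was 0.79, and 0.49 without that oocyte (adjusted p = 0.0423). A further 8 genes with a symbol passed against 90-99 μm and not, in the same direction, against 110-119 μm. AKR1A1, an aldehyde reductase, had a median of 199.8 CPM against 76.4 CPM at 90-99 μm and 152.3 CPM at 110-119 μm. CDC25B, a phosphatase that activates cyclin-dependent kinases, had a median of 84.5 CPM against 38.6 and 50.7 CPM. CCL25, a chemokine, had a median of 111 CPM against 32.6 and 162 CPM, and was lower than at 110-119 μm (adjusted p = 0.0202). CLGN, a chaperone of the endoplasmic reticulum, was the only one of the 8 that was lower, with a median of 167 CPM against 269.3 and 151.3 CPM. CHAC1, C7H19orf67, ACOT8 and CCDC32 were higher by 0.89 to 1.14 on the log2 scale.

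With the deepest oocyte left out, 4 genes (0.0364%) passed against 90-99 μm, all higher and none with a symbol. ENSBTAG00000004705 ran from 112 to 248 CPM at 100-109 μm with a median of 154 CPM, against medians of 110 and 117 CPM in the flanks. ENSBTAG00000012372 had a median of 51.2 CPM against 30.5 and 34.4 CPM. ENSBTAG00000008945 and ENSBTAG00000017285 were without a count in 17 and 18 of the 21 oocytes of 90-99 μm, in 6 and 4 of the 18 oocytes of 100-109 μm and in 3 of 19 at 110-119 μm for both. Their medians were 3.37 and 2.28 CPM at 100-109 μm, above the 0 CPM of 90-99 μm and below the 7.14 and 5.11 CPM of 110-119 μm.

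Transcripts of the mitochondrial genome were lower at 100-109 μm on single oocytes, with larger differences in replicate 1. These encode core subunits of the respiratory chain, and 4 could be named. COX1, a catalytic subunit of cytochrome c oxidase, had a median of 1257.1 CPM in a range of 657 to 6893.0 CPM, against medians of 2438.3 and 2708.5 CPM. In 16 of 18 oocytes it lay below the flank median. ATP8, a subunit of ATP synthase, had a median of 1891.9 CPM against 2977.8 and 3572.9 CPM, and COX2 one of 676 CPM against 885 and 952 CPM. ATP6 had a median of 477 CPM against 624 and 595 CPM. Under 60 μm the medians were higher, at 4423.2 CPM for COX1, 2310.2 for COX2, 1257.1 for ATP6 and 5948.1 for ATP8. Above 120 μm they were 1429.5, 491.4, 472.5 and 2513.0 CPM, so COX2 and, slightly, ATP6 were lower there than at 100-109 μm. The study's list of analysed oocytes had left out those with a high share of mitochondrial reads. The ATP8 and ATP6 genes overlap on the mitochondrial chromosome, so reads in the overlap cannot be assigned to either.

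On single oocytes all 4 mitochondrial transcripts were lower than the flank mean, with log2 fold changes from -0.68 for ATP6 to -1.16 for COX1 (adjusted p from 0.000781 to 0.00761). All 4 passed against 110-119 μm, and none passed against 90-99 μm (adjusted p from 0.0588 to 0.191). On the sums none was called (adjusted p from 0.163 to 0.364). In replicate 1 alone the log2 fold changes were -0.82 to -1.63 and in replicate 2 alone -0.02 to -0.25. In replicate 2 the COX1 sum was 2762.9 CPM at 100-109 μm, between 4195.8 CPM at 90-99 μm and 1785.9 CPM at 110-119 μm. By oocyte medians in replicate 2, COX1 stood at 1302.2 CPM, below the 3925.9 CPM of 90-99 μm and the 1513.0 CPM of 110-119 μm. COX2 was also below both (732 against 954 and 753 CPM), while ATP6 (505 CPM) and ATP8 (2239.4 CPM) lay between the flanks. The test of the difference between replicates, given above for all genes, called none of them.

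**Figure D5:**
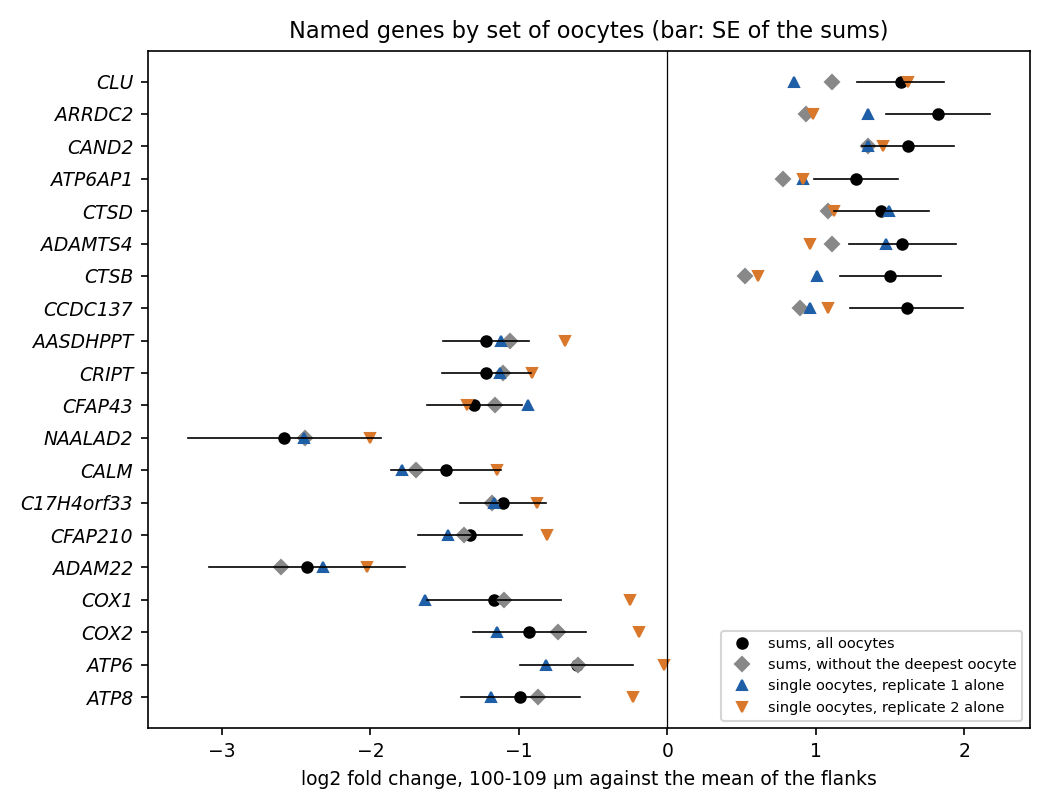
Log2 fold change at 100-109 μm against the mean of the flanks (horizontal axis) for the 16 named genes with a symbol and the 4 mitochondrial transcripts. Black points with bars are the sums ± SE, grey diamonds the sums without the deepest oocyte and triangles single oocytes of each replicate alone; the mitochondrial transcripts lie at -0.82 to -1.63 in replicate 1 and at -0.02 to -0.25 in replicate 2.

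The gene lists that follow are counted on single oocytes. Over all genes, 12.6% were higher and 11.8% lower than the flank mean, or 6.88% and 11.5% without the deepest oocyte. Over all genes 17.9% were higher and 19.0% lower than at 110-119 μm, and 0.555% higher and 0.182% lower than at 90-99 μm.

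Among nuclear genes of ATP synthase and of cytochrome c oxidase, more were lower than higher. Of 15 nuclear subunits and factors of ATP synthase tested, 5 were lower than the flank mean on single oocytes and 1 (ATP5F1B) higher, beside 11.8% and 12.6% of all genes. ATP5PO and ATP5PD, of the stalk that joins the 2 parts of the enzyme, had medians of 231 and 255 CPM against 317 and 329.5 CPM at 90-99 μm and 630 and 670 CPM at 110-119 μm. Of 18 nuclear genes of cytochrome c oxidase, 4 were lower (COX20, COX6C, COX15 and COX5A) and COX8A was higher. The median log2 fold changes were -0.30 and -0.40 in the 2 lists. None of either list passed against 90-99 μm, where few genes passed at all. Against 110-119 μm, 6 and 8 were lower and 2 of each list higher. Once the deepest oocyte was omitted, the ATP synthase list had 6 lower and 0 higher, and the oxidase list 4 lower and 1 higher.

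Among the subunits of vesicle coats, more were higher than lower. Of 36 subunits of vesicle coats and their adaptors, 12 were higher than the flank mean on single oocytes and 2 (AP1S2 and AP3S1) lower, beside 12.6% and 11.8% of all genes. COPG1, a subunit of the coat that carries cargo from the Golgi, had a median of 92.7 CPM against 84.7 CPM at 90-99 μm and 21.0 CPM at 110-119 μm. AP1M2 had a median of 104 CPM against 77.0 and 54.0 CPM, and AP2A2, of the adaptor for endocytosis, one of 58.4 CPM against 53.6 and 17.97 CPM. None of the 36 passed against 90-99 μm, 17 were higher and 6 lower than at 110-119 μm, beside 17.9% and 19.0% of all genes. Once the deepest oocyte was omitted, 8 were higher and 2 lower. Of 9 ESCRT-III genes, which act in membrane scission, 2 were higher and 2 lower. Of 15 genes of the vacuolar proton pump, ATP6AP1 was higher and 3 were lower. Of 16 autophagy genes 4 were higher, among them ATG2A and ATG4D, and 3 were lower. Once the deepest oocyte was omitted, 2 autophagy genes were higher and 4 lower, and the counts of the ESCRT-III and proton pump lists were the same.

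Genes of the centrosome and of chromosome segregation moved in both directions, with more of them lower. Of 36 centrosome genes, 13 were lower than the flank mean on single oocytes and 7 higher, beside 11.8% and 12.6% of all genes. CETN3, a centrin, had a median of 546 CPM against 687 and 1974.0 CPM, and CEP295 one of 41.8 CPM against 62.9 and 133 CPM. Of 26 genes of the centromere, kinetochore and passenger complex, 7 were lower and 2 higher. CENPE, a kinetochore motor, had a median of 154 CPM against 207 and 408 CPM, and CENPF, which had a median of 516 CPM at 100-109 μm, had 455.9 CPM at 90-99 μm and 1128.1 CPM at 110-119 μm. No gene of either list passed against 90-99 μm, where few genes passed at all. Once the deepest oocyte was omitted, the centrosome list had 13 lower and 1 higher, and the centromere list 8 lower and 0 higher.

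Cell cycle regulators gave mixed counts, to be read beside 12.6% higher and 11.8% lower over all genes. In the anaphase-promoting complex 3 of 13 genes were higher and 2 lower. CDC20, its activator, had a median of 317 CPM against 245 and 191 CPM, and CDC27, a core subunit, one of 203.5 CPM against 242.3 and 683 CPM. Of 23 cyclins 2 were higher (CCNF and CCND3) and 2 lower (CCNH and CCNC). Of 28 cyclin-dependent kinases and their regulators 4 were higher and CDK1, the kinase that drives entry into meiotic division, was lower, with a median of 278.3 CPM against 443.3 and 686 CPM. Of 23 DNA damage genes 7 were lower, among them BRCA2 and BRIP1, and 3 higher. Of 40 chromatin readers and remodelers 9 were lower, among them ATRX, ARID4A and BAZ1A, and 5 higher, among them both tested large subunits of the CAF-1 histone chaperone, CHAF1A and CHAF1B. When the deepest oocyte was omitted, the counts higher and lower were 2 and 2 for the anaphase-promoting complex, 1 and 2 for cyclins, 3 and 2 for the kinases, 1 and 7 for DNA damage and 3 and 8 for chromatin.

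Among regulators of stored messages, 3 of 24 genes were higher and 3 lower, near the shares of all genes. When the deepest oocyte was omitted, 0 were higher and 2 lower. BTG4, an adaptor that brings the deadenylase to maternal messages, was lower on single oocytes (-0.67 ± 0.17, adjusted p = 0.00234). Its median of 3406.7 CPM stood close to the 3497.8 CPM of 90-99 μm, with 6174.4 CPM at 110-119 μm. CPEB1, which binds the cytoplasmic polyadenylation element, was higher by 0.36 ± 0.13 (adjusted p = 0.0265), and lost its call without the deepest oocyte (adjusted p = 0.302), in which it reached 5779.6 CPM.

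The oocyte-specific genes that could be named did not move together. BMP15, a growth factor secreted by the oocyte to its granulosa cells, had a median of 1808.1 CPM against 1124.5 CPM at 90-99 μm and 940.2 CPM at 110-119 μm, and 16 of 18 oocytes lay above the flank median. It was higher on single oocytes (0.53 ± 0.19, adjusted p = 0.032) and not on the sums (0.23 ± 0.34, adjusted p = 0.721). On single oocytes BMP15 passed against 110-119 μm (0.64, adjusted p = 0.02) and not against 90-99 μm (0.42, adjusted p = 0.31). The deepest oocyte, at 618 CPM, was the lowest of its group, and without it the sums gave 0.53 (adjusted p = 0.44). In replicate 2 its median, 1845.4 CPM, lay below the 2069.7 CPM of 110-119 μm and above the 1000.6 CPM of 90-99 μm. AURKC, a kinase of meiosis, had a median of 192 CPM against 124 and 129 CPM (0.42 ± 0.16 on single oocytes, adjusted p = 0.0393, and 0.38 without the deepest oocyte, adjusted p = 0.0728). With all oocytes AURKC passed against neither flank (0.52 against 90-99 μm, adjusted p = 0.122, and 0.31 against 110-119 μm, adjusted p = 0.171). BCAR4, a gene of bovine oocytes, was lower than the flank mean (-0.58 ± 0.18, adjusted p = 0.014), with the distance on one side. Its median was 80.0 CPM, next to 76.5 CPM at 90-99 μm and 196 CPM at 110-119 μm. ACTL8, an actin-like gene, did not pass (0.70 ± 0.53, adjusted p = 0.336), with 81.8 CPM in the deepest oocyte and a group median of 8.12 CPM.

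The remaining lists had the following calls on single oocytes. Cullins and their regulators had 2 higher and 3 lower of 11, COP9 signalosome 2 higher and 1 lower of 9, casein kinases 3 higher and 1 lower of 9, and the Arp2/3 complex 1 higher and 2 lower of 9. Calcium handling genes had 2 higher and 2 lower of 18, BMP and activin signalling 1 higher and 1 lower of 13, and apoptosis genes 0 higher and 2 lower of 17. None of the 7 chaperonin CCT genes tested was called by edgeR. These counts stand beside 12.6% higher and 11.8% lower over all genes. When the deepest oocyte was omitted, the counts higher and lower were 1 and 3 for cullins, 0 and 1 for COP9, 1 and 1 for casein kinases, 0 and 2 for Arp2/3, 1 and 2 for calcium handling, 1 and 0 for BMP and activin, 0 and 2 for apoptosis and 0 and 1 for the chaperonin.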

How the data were processed

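Reads of each oocyte had been trimmed by the authors with Trim Galore 0.6.6, aligned to the cattle genome ARS-UCD1.2 with HISAT2 and counted per gene in SeqMonk. The deposited values are raw read counts, 1 column per oocyte. Lines repeating a gene identifier were summed, which gave 21218 genes. Counts were summed by size group and replicate, filtered with filterByExpr (minimum count of 10) and fitted with edgeR 4.0.16 (quasi-likelihood test, TMM, replicate as block, Benjamini-Hochberg adjustment at 0.05, R 4.3.3), after the script was tested on simulated data. The contrast was 100-109 μm minus the mean of both flanks. DESeq2 1.42.0, single oocytes, thinning to 250000 counts and omitted libraries were alternatives. The labels give only a replicate number. The study's methods describe the replicates as separate library preparations of different read length, and the study corrected for them as a batch. Sums sharing a number deviated together (correlations of 0.398 to 0.694 over 28 pairs), so the number pairs the sums.

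Named genes were the 8 peaks and 8 dips with a symbol and smallest unadjusted p whose sums lay beyond both flanks in both replicates, the 2 of each without a symbol, and a set of mitochondrial and oocyte genes. Members and lists were chosen with earlier results of these data known. Symbols came from the study's supplementary gene tables, and a gene among those that passed is not reported here. Of the oocytes of this size, 2 are not on the study's list of analysed oocytes and were not used here. In that list, the totals of 2 identifiers correspond to other oocytes, and an alternative uses those oocytes instead.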

Additional observations from a re-analysis of the deposited data

Results flagged for a closer look

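Of 96 sets of 4 to 10 oocytes checked (a named gene, the genes detected or the total counts, in 1 size group of replicate 2), 8 held an oocyte far from the others by Dixon's criterion, where chance gives about 1 in 20. In the 7 oocytes of 100-109 μm, CFAP210 reached 92.02 CPM with the next at 49.3 CPM, and ATP8 reached 6673.1 CPM with the next at 3622.0 CPM. In the 7 oocytes of 110-119 μm, CLU reached 25.5 CPM (next 8.51), CAND2 19.4 CPM (next 5.67), NAALAD2 13.3 CPM (next 5.19) and ENSBTAG00000002123 6.38 CPM (next 1.02). In the 9 oocytes of 90-99 μm, ADAMTS4 reached 22.5 CPM (next 11.9) and COX2 3674.4 CPM (next 1956.0).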

How the results depend on the processing

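Shares of the genes tested are given for genes higher, lower, peaking and dipping. On the sums all 4 were 0%. They stayed at 0% without the replicate block, with RLE scaling, after thinning, with all 179 deposited oocytes, with the oocytes whose totals the study's list gives and without the deepest oocyte (927 and 1093 genes at an unadjusted p under 0.05). They were 2.18, 0.601, 2.18 and 0.601% with no filter on low counts, 0.67, 0.0239, 0.67 and 0.0239% with the 3 groups only, 0.0142, 0, 0.0142 and 0% with wider flanks (CLU and ENSBTAG00000006125), and 3.7, 2.1, 3.68 and 2.07% by DESeq2. Leaving out 1 replicate sum at a time gave 0 to 2.35% higher, 0 to 2.44% lower, 0 to 2.35% peaking and 0 to 2.4% dipping. The sums whose omission gave calls were 100-109 μm replicate 2 (2.35 and 1.07%) and 110-119 μm replicate 2 (2.07 and 2.44%). Single oocytes gave 12.6, 11.8, 12.4 and 11.4%. ComBat-seq counts gave 10.6, 13.6, 10.4 and 13.1%, replicate 1 alone 12.5, 10.7, 11.7 and 9.85%, omission of the deepest oocyte 6.88, 11.5, 6.79 and 11.1%, thinning 12.7, 12, 12.6 and 11.4%, and the oocytes whose totals are listed 13, 11.7, 12.8 and 11.3%. Replicate 2 alone gave 0% by edgeR. The rule on both flanks gave 0.00557% above with no filter and 0.0071% by DESeq2, 1 gene each. The excess of detected genes was 317 in replicate 1 alone. Leaving out 1 replicate sum at a time moved ATP6 from -1.02 to 0.10 and BMP15 from -0.02 to 0.67 on the log2 scale, and both changed sign without 110-119 μm replicate 1. The cause of these changes was not tested.

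The sums give 2 values per size, and DESeq2 made calls on them where edgeR made none. The p-values cover the spread between oocytes or sums and not that between cows. Depth was lowest in the 100-109 μm oocytes of replicate 1, and genes near 0 counts there were not detectable at this depth. Symbols were known for 16.8% of identifiers.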

Other observations

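In replicate 2 alone a single gene passed against 110-119 μm on single oocytes, MKX, which encodes a homeobox factor. Over both replicates its median was 2.24 CPM at 100-109 μm, 3.88 CPM at 90-99 μm and 0 CPM at 110-119 μm, where 11 of 19 oocytes had no count.

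Against 90-99 μm in replicate 1 alone, 5 identifiers without a symbol passed. ENSBTAG00000003300 had a median of 27.5 CPM at 100-109 μm and 11.5 CPM in each flank, with its highest value, 92.9 CPM, in the deepest oocyte. ENSBTAG00000024726 and ENSBTAG00000050712 had medians of 22.3 and 30.6 CPM against 6.70 and 13.8 CPM at 90-99 μm, and their highest values, 119 and 169 CPM, were again in the deepest oocyte. ENSBTAG00000047676 and ENSBTAG00000008945 were without a count in 17 of the 21 oocytes of 90-99 μm for both. Over both replicates ENSBTAG00000047676 differed from 90-99 μm by 3.26 on the log2 scale (adjusted p = 0.0122), and by 2.2 without the deepest oocyte (adjusted p = 0.191). These genes were named after their values were seen.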
